A study of Trichoderma harzianum with 18 samples.

Results

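The comparison described here is that of the wild type of *T. harzianum*, strain CBS 226.95, on cellulose and without a carbon source, and covers all genes of the deposited tables. It shows which genes the mycelium expressed differently when cellulose was its carbon source. Its members were chosen by the condition and strain in the sample labels, which gave 6 of the 18 libraries of the series, 3 from cellulose cultures and 3 from cultures with no carbon source. Mycelia from 36 h pre-cultures on D-fructose were washed and moved to shake flasks of minimal medium that held 1% (w/v) microcrystalline cellulose or no added carbon source, and RNA was taken after 18 h at 28 °C. Both groups are therefore the same strain with the same D-fructose history, and differ in the carbon source after the transfer. The other libraries are the wild type on 25 mM D-fructose and the Δ*xyr1-2* mutant, 1 deletion strain in which a hygromycin cassette replaces *xyr1*, in the same 3 conditions. The labels give mycelium as the tissue, no cell types are compared, and less mycelium and less RNA per unit of mycelium cannot be told apart in such bulk samples.

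Cellulose is insoluble, and a fungus takes it up only as the soluble sugars that secreted enzymes release from it. Cellobiohydrolases cut cellobiose from chain ends, endoglucanases cut within chains, and lytic polysaccharide monooxygenases (LPMOs) open crystalline regions by oxidation, while xylanases and esterases act on the hemicellulose xylan that accompanies cellulose in plant cell walls. In *Trichoderma reesei* the activator XYR1 is required for the expression of cellulase and xylanase genes, and the repressor CRE1 lowers their expression when easily used sugars are present. Sugars released outside the cell enter through transporters and feed glycolysis and the tricarboxylic acid (TCA) cycle, whereas mycelium without a carbon source has to draw on its own reserves.

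The 6 libraries held between 16495622 and 21263103 reads on genes. The expression values given below are the deposited FPKM (fragment counts scaled by gene length and by sequencing depth), in the order of replicates 1, 2 and 3, and means are given with the SD of 3 replicates. Fold changes and adjusted p-values are from edgeR's quasi-likelihood test on the counts of the 6 libraries, adjusted by the Benjamini-Hochberg method over the 11313 genes tested of 14650. Genes were called differentially expressed (DE) where the adjusted p was under 0.05, the change was over 2-fold, and either group had a mean FPKM over 1. The *xyr1* gene had between 2765 and 13130 reads in each of these libraries and between 0 and 11 in the 9 mutant libraries, as the strain labels say. Distances between libraries on log2(FPKM + 1) over the genes tested were between 26.7 and 28.8 within the no carbon cultures and between 175 and 188 across the groups. Within the cellulose cultures, replicates 1 and 2 lay 40.2 apart, but replicate 3 lay 97.0 and 99.3 from them. Replicate 3 therefore stood apart from the other cellulose libraries, and the main results are given with and without it where it changes them.

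There were 4748 DE genes, 42.0% of the genes tested, of which 2246 (19.9%) were higher expressed and 2502 (22.1%) lower expressed on cellulose. Without cellulose replicate 3 the count was 5642. The split between the directions depended on the scaling of the libraries. TMM factors, which assume that most genes do not change, were between 0.79 and 0.86 for the cellulose libraries and between 1.22 and 1.23 for the others. Scaled by library size only, 1335 genes (11.8%) were higher and 4045 (35.8%) lower, and the median over all genes of the log2 fold change moved from -0.06 to -0.65. The FPKM of the groups did not overlap for 8070 genes (71.3%). FPKM are scaled by library size, so a fitted log2 fold change is larger than the log2 ratio of mean FPKM, by a median of 0.59 over 10875 genes. Gene lists are therefore also described by their median relative to that of all genes, which hardly depends on the scaling.

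**Figure D1:**
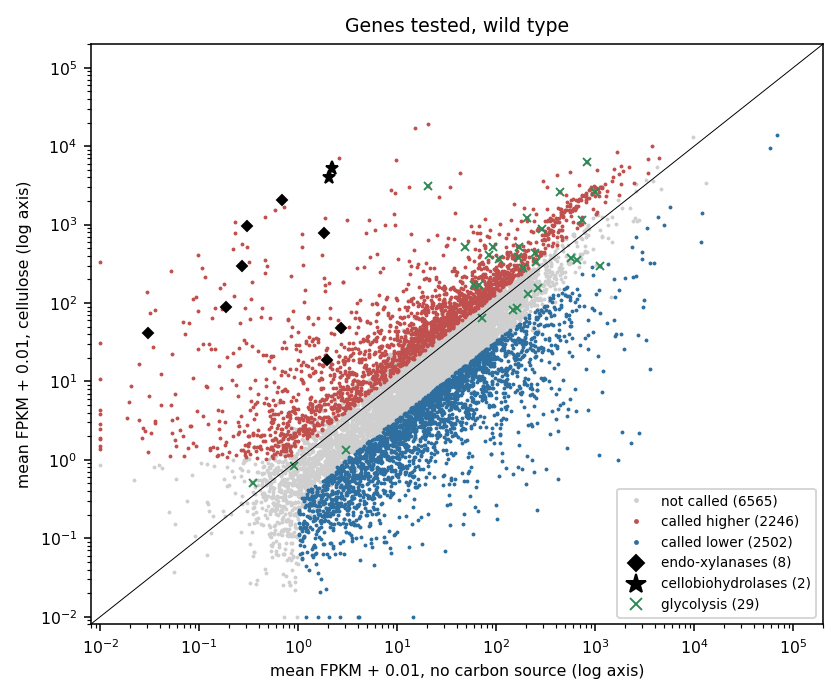
Mean FPKM of each of the 11313 genes tested in the wild type on cellulose against no carbon source, on log axes after adding 0.01, with the line of equal values. The 2246 genes called higher lie above the line and the 2502 called lower lie below it, and all 8 endo-xylanase genes tested and both cellobiohydrolase genes lie at mean values under 3 FPKM without a carbon source.

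The genes of enzymes that degrade cellulose and xylan were among those with the largest rises. Of the 58 plant biomass-degrading (PBD) CAZymes listed (carbohydrate-active enzymes), 45 were tested, 29 were higher on cellulose, 7 were lower and 9 were not called. Among all genes tested, 19.9% were higher and 22.1% lower. Against 71.3% of all genes, the FPKM of the groups did not overlap for 39 of the 45 PBD CAZymes. Their median log2 fold change was 5.26, against -0.06 for all genes tested, and 5.32 relative to that of all genes (5.36 when scaled by library size only). The summed FPKM of the 58 genes was 11569, 9633 and 38009 on cellulose and 2497, 2452 and 2453 without a carbon source, a ratio of means of 8.00. That ratio was 4.30 without cellulose replicate 3. The groups did not overlap, and a 2-sided exact permutation test of the log2 sums gave p = 0.1, the smallest that 3 against 3 libraries allow.

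Both cellobiohydrolase genes rose from near 0 to among the most highly expressed genes. The GH7 cellobiohydrolase Triha1_7497, which carries a cellulose-binding module, was at 2002, 1602 and 12216 FPKM on cellulose and at 0.685, 0.639 and 5.20 FPKM without a carbon source (log2 fold change 11.77, SE 1.66, adjusted p = 0.00164 by edgeR). The GH6 cellobiohydrolase Triha1_508689 was at 2317, 1661 and 8105 FPKM and at 1.25, 1.03 and 3.83 FPKM (log2 fold change 11.49, SE 1.13, adjusted p = 4.18e-04 by edgeR). For both genes replicate 3 was the highest and replicate 2 the lowest library of each group, and the groups did not overlap. The low no carbon values thus followed the order of the same-numbered cellulose libraries. Up to 11 reads of the deleted *xyr1* gene were counted in a mutant library, so values this near 0 need not reflect expression. Where such reads came from was not tested, and the sizes of the fold changes and ratios of these genes are uncertain to that extent. The annotated span of Triha1_7497 overlaps that of its neighbour Triha1_522101, so that the counts of both may depend on how reads in the overlap were assigned. The summed FPKM of the pair was 9301 ± 9558 on cellulose and 4.21 ± 4.18 without a carbon source, a ratio of 2207 that was 900 without cellulose replicate 3 and 5161 without no carbon replicate 3.

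Of the 3 AA9 LPMO genes, 2 were tested and both rose. Triha1_488374 was at 896, 881 and 1445 FPKM on cellulose against 0.133, 0.0812 and 0.441 FPKM (log2 fold change 12.71, SE 0.61, adjusted p = 4.35e-05 by edgeR), and Triha1_99387, which also has a cellulose-binding module, was at 894, 759.9 and 1939.6 FPKM against 1.75, 1.33 and 2.43 FPKM (log2 fold change 9.90, SE 0.58, adjusted p = 7.24e-05 by edgeR). For both genes cellulose replicate 3 was the highest library, and the groups were far apart in every replicate. The third gene, Triha1_131108, was too low to be tested, at between 0.327 and 0.508 FPKM in the 6 libraries.

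The endoglucanases did not all move together. Of the 14 genes, 11 were tested, 7 were higher on cellulose, 1 was lower and 3 were not called, with a median log2 fold change of 5.40. The genes with the largest rises were the GH7 gene Triha1_512303 at 150.5, 93.1 and 525 FPKM against 0, 0.0306 and 0.0948 FPKM (log2 fold change 12.95, SE 1.16, adjusted p = 3.08e-04 by edgeR), the GH5 gene Triha1_441083 at 278 ± 293 against 0.0968 ± 0.0933 FPKM (log2 fold change 11.91, SE 1.21), and the GH12 gene Triha1_91916 at 41.9, 38.1 and 141 FPKM. Reads of Triha1_91916 without a carbon source numbered 1 in all against 2690 on cellulose, a ratio of 4543 after scaling, with a counting interval of 815 to 179489. Another GH5 gene, Triha1_14278, and the GH45 genes Triha1_89222 and Triha1_521975 rose by 9.61, 8.58 and 5.40 on the log2 scale. In contrast, the GH5 gene Triha1_6750 was already at 60.9, 61.2 and 61.7 FPKM without a carbon source and rose only to 146, 123 and 308 FPKM (log2 fold change 2.22, SE 0.34, adjusted p = 0.00217 by edgeR).

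The remaining endoglucanases that were tested were expressed without a carbon source and were not called higher on cellulose. The GH5 gene Triha1_119344 fell from 26.8, 15.3 and 20.3 to 4.46, 3.92 and 2.09 FPKM (log2 fold change -1.97, SE 0.38, adjusted p = 0.00530 by edgeR). A second GH12 gene, Triha1_362575, had 73.6 ± 8.49 FPKM on cellulose and 109 ± 5.22 FPKM without a carbon source (log2 fold change 0.02, SE 0.13, adjusted p = 0.925 by edgeR), so of the GH12 genes one was near 0 without a carbon source and rose, and the other was expressed in both conditions. The GH5 genes Triha1_507162 and Triha1_80467 had log2 fold changes of -0.28 (SE 0.16) and -0.71 (SE 0.37) and were not called, and 3 genes were too low to be tested. Without cellulose replicate 3 there were 2 endoglucanase genes lower. The summed FPKM of the 14 genes was 1450.3 ± 1267 on cellulose and 240.5 ± 0.660 without a carbon source, a ratio of 6.03 (3.00 without cellulose replicate 3).

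**Figure D2:**
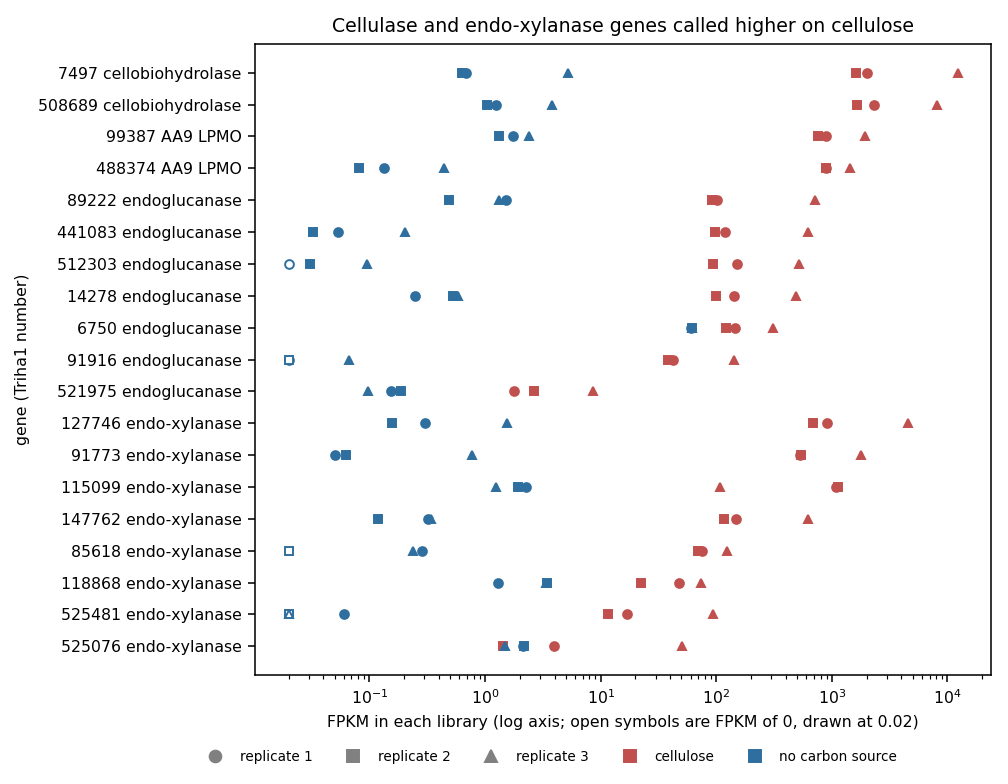
FPKM in each of the 6 libraries, on a log axis, of the cellulase and endo-xylanase genes called higher on cellulose, with cellulose libraries in red, no carbon libraries in blue and the symbol giving the replicate. The libraries of the groups are apart for every gene shown except the endo-xylanase Triha1_525076, and cellulose replicate 3 is the highest red symbol for every gene except the endo-xylanase Triha1_115099.

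Xylan-degrading genes rose on cellulose as well. All 8 of the endo-xylanase genes that could be tested, of 9, were higher on cellulose, with a median log2 fold change of 10.04, and their summed FPKM was 4282 ± 2731 on cellulose against 7.85 ± 1.14 without a carbon source. This ratio of 545 was 345 without cellulose replicate 3. The GH11 xylanase Triha1_127746 was at 908, 684 and 4584 FPKM against 0.300, 0.158 and 1.55 FPKM (log2 fold change 12.08, SE 1.44, adjusted p = 8.54e-04 by edgeR), and the GH10 xylanase Triha1_91773 at 535, 544 and 1779.8 FPKM against 0.0510, 0.0624 and 0.774 FPKM (log2 fold change 12.11, SE 1.18, adjusted p = 4.10e-04 by edgeR). The GH11 xylanase Triha1_115099 was the only endo-xylanase that was lowest in cellulose replicate 3, with 1096, 1132 and 108 FPKM against 2.25, 1.92 and 1.24 FPKM (log2 fold change 9.37, SE 1.13, adjusted p = 8.93e-04 by edgeR). The GH11 xylanase Triha1_118868 rose by 4.72 on the log2 scale, and the GH30 xylanases Triha1_147762 and Triha1_85618 by 10.62 and 9.46. Triha1_525481, also of GH30, had 3454 reads on cellulose against 2, a ratio of 2916 with a counting interval of 807 to 24091. The weakest of the 8 was the GH11 gene Triha1_525076, which was at 3.94, 1.43 and 50.1 FPKM against 2.12, 2.17 and 1.49 FPKM (log2 fold change 3.79, SE 1.27, adjusted p = 0.0411 by edgeR). Its groups overlapped, and it lost its call without any 1 of the no carbon libraries, with scaling by library size only and with the replicate number as a block.

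Esterase genes listed with xylan moved in both directions, though a CE5 gene annotated as cutinase or acetylxylan esterase need not act on xylan. Among 5 CE5 cutinase or acetylxylan esterase genes, Triha1_94998, which has a cellulose-binding module, rose from 0, 0 and 0.261 to 358, 251 and 604 FPKM (log2 fold change 12.50, SE 0.88, adjusted p = 1.32e-04 by edgeR) and Triha1_118643 rose from 0.399, 0.122 and 2.60 to 33.9, 22.1 and 16.3 FPKM, while Triha1_128023 fell from 11.3, 15.6 and 6.08 to 1.95, 2.25 and 2.21 FPKM. Of 10 other xylan esterase genes, 8 were tested, 4 rose and 2 fell (3 fell without cellulose replicate 3). The glucuronoyl methylesterase Triha1_494647, which cuts the ester between glucuronic acid and lignin, was at 81.7, 73.9 and 105 FPKM against 0.179, 0.0877 and 0.136 FPKM (log2 fold change 9.84, SE 0.29, adjusted p = 2.59e-05 by edgeR). The CE16 esterase genes moved both ways, with Triha1_78034 rising by 8.71 on the log2 scale and Triha1_105085 falling by 3.48. Both GH67 alpha-glucuronidase genes rose, Triha1_21376 by 8.29 and Triha1_509810 by 5.07.

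Genes listed for polymers other than cellulose and xylan also moved in both directions, with few genes tested for each polymer. Of 4 endo-mannanase genes, Triha1_111861 rose from 0.342, 0.152 and 0.857 to 783, 705 and 2242 FPKM (log2 fold change 11.94, SE 0.97, adjusted p = 2.16e-04 by edgeR) and Triha1_99972 from 0.904, 0.681 and 0.759 to 92.8, 76.7 and 15.5 FPKM, but the GH26 genes Triha1_110887 and Triha1_79128 were not called. For both GH26 genes cellulose replicate 3 was above every no carbon library and the other cellulose replicates were below them, and without replicate 3 their log2 fold changes turned from 0.10 and 0.45 to -1.61 and -1.002, both called lower. Both glucoamylases, which release glucose from starch and glycogen, were lower on cellulose, Triha1_81392 at 140.4, 109.7 and 60.5 FPKM against 361, 382 and 353 FPKM (log2 fold change -1.21, SE 0.34, adjusted p = 0.0213 by edgeR) and Triha1_81370 at 2.73, 3.61 and 15.5 FPKM against 68.6, 56.6 and 55.0 FPKM (log2 fold change -2.49, SE 0.63, adjusted p = 0.0155 by edgeR). The call of Triha1_81370 was lost without cellulose replicate 2, and that of Triha1_81392 without any 1 of 5 libraries, all except cellulose replicate 1. The only pectin enzyme gene tested of 5, the GH28 gene Triha1_88799, fell from 1606, 1540.3 and 1562 to 12.8, 13.9 and 85.8 FPKM (log2 fold change -4.84, SE 0.83, adjusted p = 0.00350 by edgeR). Of the β-glucosidase genes, whose enzyme type splits cellobiose into glucose, only the 2 GH3 genes that the paper names as apparently constitutive are described. These genes, Triha1_504610 and Triha1_96503, were not called, with 78.8 ± 75.8 against 84.3 ± 10.7 FPKM and 52.9 ± 11.3 against 56.5 ± 5.00 FPKM. Cellulose replicate 3 was the highest cellulose library for both, and neither was called with any 1 library left out. Given the SD of 75.8 FPKM, the similar means of Triha1_504610 do not show equal expression in the 2 conditions. Other β-glucosidase genes, some of which the paper reports as induced by cellulose against D-fructose, are not described here.

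The genes of both transcription factors that were listed rose. The activator gene *xyr1* was at 72.6, 145 and 273 FPKM on cellulose and 64.8, 59.6 and 61.4 FPKM without a carbon source (log2 fold change 1.96, SE 0.43, adjusted p = 0.00915 by edgeR), so it was expressed in both conditions, unlike most of the cellulase and xylanase genes above. The repressor gene *cre1* was at 193, 249 and 327 FPKM against 138, 154 and 148 FPKM (log2 fold change 1.38, SE 0.21, adjusted p = 0.00225 by edgeR), and with scaling by library size only its log2 fold change was 0.80 and it was not called. For both genes all 3 cellulose libraries were above all 3 no carbon libraries, and cellulose replicate 3 was the highest.

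Sugar transporter genes (major facilitator superfamily, sugar transporter domain) went in both directions. Of 90 genes, 75 were tested, 14 were higher on cellulose and 27 were lower, with a median log2 fold change of -0.92, which is -0.86 relative to that of all genes (-0.85 with scaling by library size only). Among all genes tested, 19.9% were higher and 22.1% lower. The share of transporters that rose was therefore near that of all genes, and the share that fell was above it. Without cellulose replicate 3 there were 35 transporters lower, and scaled by library size only there were 12 higher and 39 lower. The 3 with the largest rises were Triha1_513737 (25.6, 22.0 and 74.3 against 0.0556, 0 and 0.132 FPKM), Triha1_79806 (1397, 1622 and 398 against 2.65, 3.73 and 2.92 FPKM) and Triha1_502689 (2054, 2338 and 3912 against 8.25, 7.69 and 9.77 FPKM). Their log2 fold changes were 9.71 (SE 0.86), 9.14 (SE 0.75) and 8.91 (SE 0.45), with adjusted p = 2.96e-04, 2.23e-04 and 4.81e-05 by edgeR. Triha1_502689 had the highest mean FPKM of all the transporters on cellulose, and had 11.2 FPKM on D-fructose. Triha1_79806 was lowest in cellulose replicate 3, where Triha1_513737 and Triha1_502689 were highest.

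Transporters that fell were expressed without a carbon source at levels up to 1773 FPKM. The 3 with the largest falls were Triha1_478307 (0.0715, 0.106 and 1.22 against 52.6, 17.1 and 18.1 FPKM), Triha1_488937 (1.87, 3.85 and 1.80 against 138, 92.8 and 97.3 FPKM) and Triha1_17182 (0, 0 and 0.484 against 7.28, 6.36 and 6.21 FPKM), with log2 fold changes of -5.42 (SE 1.03), -4.85 (SE 0.40) and -4.78 (SE 1.03) by edgeR. Cellulose replicate 3 was the only cellulose library with reads of Triha1_17182. The most highly expressed of those that fell were Triha1_93294 at 1773, 1456 and 1517 FPKM without a carbon source against 62.5, 108 and 183 FPKM on cellulose (log2 fold change -3.18, SE 0.40), Triha1_93498 at 974, 945 and 1012 against 34.3, 31.9 and 178 FPKM (log2 fold change -3.04, SE 0.70), and Triha1_4923 at 914, 735 and 871 against 39.7, 51.4 and 90.4 FPKM (log2 fold change -3.22, SE 0.34). These 3 were named after their values were seen.

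**Figure D3:**
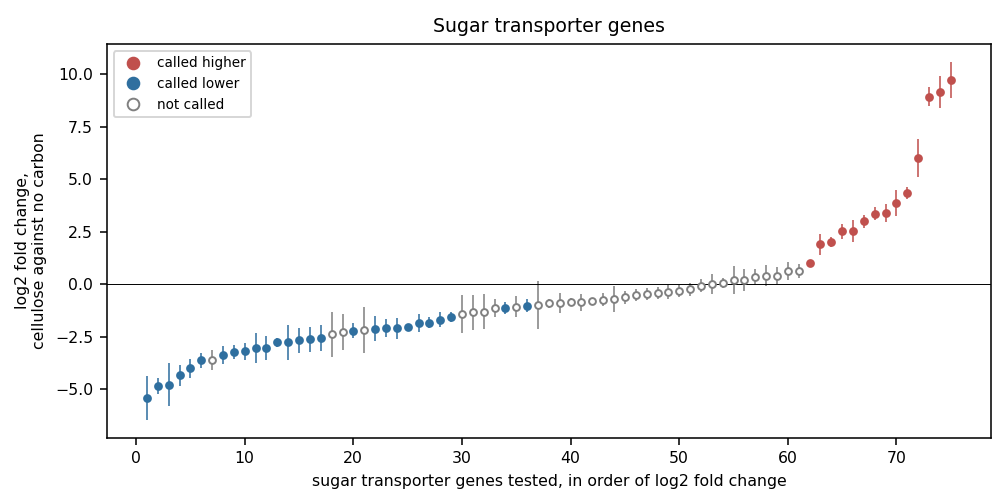
Log2 fold changes with their standard errors of the 75 sugar transporter genes tested, in order, with filled red symbols for the 14 called higher on cellulose, filled blue symbols for the 27 called lower and open symbols for those not called. The 3 genes at the right lie between 8.91 and 9.71, above all the others.

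Glycolysis genes were mostly higher on cellulose. Of 30 genes, which include the steps from pyruvate to acetyl-CoA, ethanol and acetate, 29 were tested, 18 were higher, 1 was lower and 10 were not called, with FPKM that did not overlap for 21 of 29, near the 71.3% of all genes, and a median log2 fold change of 1.40 (1.46 relative to that of all genes). Among all genes tested, 19.9% were higher and 22.1% lower. Scaled by library size only, 14 glycolysis genes were higher and 2 were lower. The gene with the largest rise was *pdcA*, for pyruvate decarboxylase, the first step from pyruvate to ethanol, which was at 3355, 3388 and 2512 FPKM against 18.6, 21.0 and 21.3 FPKM (log2 fold change 7.85, SE 0.38, adjusted p = 4.52e-05 by edgeR). The alcohol dehydrogenase gene *adhA* was at 6750.4, 6561 and 5592 FPKM against 346, 283 and 1829 FPKM (log2 fold change 3.54, SE 0.81, adjusted p = 0.0105 by edgeR), with no carbon replicate 3 far above the other libraries of its group. In contrast, the aldehyde dehydrogenase gene *aldA*, for the step from acetaldehyde to acetate, fell from 1054, 969.6 and 1319.7 to 219, 303 and 359 FPKM (log2 fold change -1.34, SE 0.25, adjusted p = 0.00494 by edgeR).

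The steps from glucose to pyruvate rose to different extents. Glucokinase *glkA* was at 447, 824 and 278 FPKM against 91.2, 93.0 and 92.1 FPKM (log2 fold change 3.09, SE 0.44, adjusted p = 0.00165 by edgeR), while hexokinase *hxkA* was not called, at 139.8, 147 and 103 against 217, 201 and 206 FPKM. The phosphoglycerate mutase gene *pgmA* rose by 4.03, enolase *enoA/acuN* by 3.19, phosphoglycerate kinase *pgkA* by 3.15 and triosephosphate isomerase *tpiA* by 2.21 on the log2 scale. In these 4 genes each cellulose library was above each no carbon library, as for *pgmA* with 553, 736 and 271 FPKM against 47.8, 43.6 and 53.8 FPKM. The phosphofructokinase gene *pfkA* (log2 fold change 2.13, SE 0.54), pyruvate kinase *pkiA* (log2 fold change 1.40, SE 0.44), aldolase *fbaA* (log2 fold change 1.28, SE 0.42) and glucose-6-phosphate isomerase *pgiA/swoM* (log2 fold change 1.01, SE 0.31) were called with overlapping replicates. The calls of *pkiA*, *fbaA* and *pgiA/swoM* were lost without any 1 of 5 libraries, all except cellulose replicate 3, and with scaling by library size only. Those of *fbaA* and *pgiA/swoM* were also lost with the replicate number as a block, and that of *pgiA/swoM* without the filter on low counts and with all 18 libraries in one fit. The call of *pfkA* was lost without any 1 of the no carbon libraries, and leaving out 1 library left between 13 and 18 glycolysis genes higher.

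Subunits of the pyruvate dehydrogenase complex, which turns pyruvate into acetyl-CoA, rose together, *pda1* by 2.20, Triha1_71222 by 2.38, Triha1_139606 by 1.96 and *lpd1* by 1.81. Aldose 1-epimerase Triha1_83864 rose by 2.87, at 443, 500.5 and 278 FPKM against 87.2, 81.8 and 85.3 FPKM. The genes of 3 steps used in the opposite direction, gluconeogenesis, were not called. PEP carboxykinase Triha1_83850 was at 333, 326 and 471 against 555, 548 and 608 FPKM, fructose-bisphosphatase Triha1_492706 at 87.9, 90.8 and 79.4 against 163, 157 and 163 FPKM and pyruvate carboxylase *pyc* at 81.9, 117 and 44.6 against 151, 132 and 156 FPKM, with log2 fold changes of -0.02, -0.31 and -0.25.

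Of the 21 TCA cycle genes, all were tested, 11 were higher, 2 were lower and 8 were not called, with a median log2 fold change of 1.06 (1.12 relative to that of all genes). Among all genes tested, 19.9% were higher and 22.1% lower. Scaled by library size only, 6 TCA cycle genes were higher and 3 were lower. Leaving out 1 library gave between 9 and 13 higher, with 13 without cellulose replicate 3. The call of *sdhA* was lost when any library other than cellulose replicate 3 was left out. That of Triha1_358464 was lost without any 1 of the no carbon libraries. Citrate synthase *citA*, which starts the cycle, was at 763, 712 and 532 FPKM against 150.2, 147 and 164 FPKM (log2 fold change 2.72, SE 0.24, adjusted p = 2.96e-04 by edgeR), and the NAD isocitrate dehydrogenase subunit Triha1_71098 at 533, 332 and 399 against 146, 156 and 176 FPKM (log2 fold change 2.00, SE 0.24, adjusted p = 8.43e-04 by edgeR). The gene with the largest rise in the list was *oahA*, named after the oxaloacetate hydrolase of *Aspergillus*, at 22.9, 24.2 and 34.5 against 3.18, 2.27 and 3.25 FPKM (log2 fold change 3.80, SE 0.25, adjusted p = 1.08e-04 by edgeR).

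The 2 TCA genes that fell were those of the glyoxylate bypass, which lets acetyl-CoA be turned into sugars. Malate synthase Triha1_507821 was at 12.3, 16.1 and 15.1 FPKM on cellulose against 176, 174 and 244 FPKM (log2 fold change -3.18, SE 0.21, adjusted p = 1.14e-04 by edgeR), and isocitrate lyase *acuD* at 50.9, 54.5 and 68.8 FPKM against 405, 392 and 651 FPKM (log2 fold change -2.47, SE 0.26, adjusted p = 5.52e-04 by edgeR). Neither gene had overlapping groups, and both were called lower without each of the 6 libraries in turn.

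**Figure D4:**
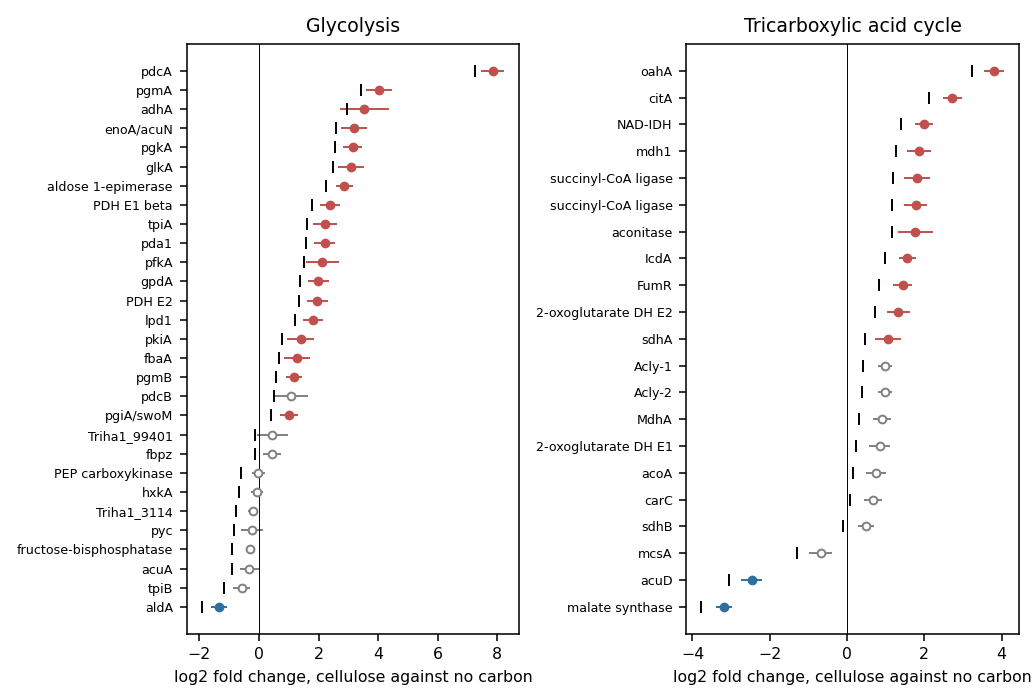
Log2 fold changes with their standard errors of the glycolysis genes (left) and TCA cycle genes (right) tested, with filled red symbols for genes called higher on cellulose, filled blue for called lower and open for not called, and black ticks for the same fold change with scaling by library size only. The gene *pdcA* is at 7.85, and the glyoxylate genes *acuD* and malate synthase are at -2.47 and -3.18.

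Some genes of the pathways for the sugars of hemicellulose were called, in both directions. The shares over all genes tested were 19.9% higher and 22.1% lower. These lists are small and several of their counts are near those shares, so the genes are described singly and not as a response of a pathway. In the pentose catabolic pathway, for D-xylose and L-arabinose, the first reductase gene *xyl1* was at 1093, 1222 and 764 FPKM against 119.5, 103 and 107 FPKM (log2 fold change 3.82, SE 0.28, adjusted p = 1.53e-04 by edgeR), and the D-xylulose kinase gene *xki1* at 52.0, 51.0 and 39.2 against 14.9, 12.7 and 14.5 FPKM (log2 fold change 2.35, SE 0.20, adjusted p = 2.40e-04 by edgeR). The L-xylulose reductase gene *lxr3/gld1* was higher at 106, 158 and 97.3 against 73.1, 81.6 and 75.8 FPKM (log2 fold change 1.25, SE 0.23, adjusted p = 0.00432 by edgeR), but was not called with scaling by library size only. The dehydrogenase genes *lad1* and *xdh1* were not higher. *lad1* fell by 1.06 on the log2 scale (11.1, 13.3 and 14.7 against 41.3, 42.3 and 38.7 FPKM), a call that DESeq2 and RLE size factors did not make and that was lost without cellulose replicate 1, and *xdh1* was not called at -0.44 (SE 0.28). In the alternative L-arabinose pathway only *araB* of 5 genes was called (1 more, lower, without cellulose replicate 3), at 344, 333 and 294 FPKM against 19.9, 19.7 and 19.7 FPKM (log2 fold change 4.63, SE 0.18, adjusted p = 2.63e-05 by edgeR). The D-galacturonic acid pathway had 2 genes higher and 1 lower of 7, with *ara1* rising to 183, 144 and 18.2 from 8.77, 9.51 and 10.9 FPKM and *lga1/araD* falling to 13.4, 13.8 and 15.9 from 54.7, 61.1 and 47.5 FPKM. Without any 1 of the no carbon libraries 1 was higher, the call of *lgd1* being lost, and without cellulose replicate 2 there were 2 lower. The Leloir pathway for D-galactose had 2 of 4 genes higher, *gal1* (log2 fold change 1.49, SE 0.32) and *gal10* (log2 fold change 1.07, SE 0.17), and none with scaling by library size only. Without cellulose replicate 3 it had 3 higher. The pentose phosphate pathway had 2 genes higher, *rpeA* (log2 fold change 1.30, SE 0.16) and *talA* (log2 fold change 1.22, SE 0.32), and *tktB* lower (log2 fold change -1.31, SE 0.27), of 9 tested, and *rpeA* and *talA* were not called with scaling by library size only. The call of *talA* was also lost without any 1 of the no carbon libraries, leaving 1 higher, and without cellulose replicate 3 there were 4 higher. There were 2 lower without any 1 of the cellulose libraries or without no carbon replicate 2. Of the D-mannose and L-rhamnose pathway genes, 3 in each, none was called by edgeR, with log2 fold changes between -0.84 and 1.34 and adjusted p between 0.0126 and 0.822. DESeq2 called none of the former and *lra3* (Triha1_79940) of the latter, of which 1 was higher without cellulose replicate 1 or 2 and 1 was lower without cellulose replicate 3.

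Beyond the listed genes, the largest rises by the fitted fold change, with replicates that did not overlap, included genes for which no role was given in the sources used here. Triha1_93744 was at 126, 162 and 714 FPKM on cellulose and had no read without a carbon source, so it was at least 2119-fold higher when set against 3 reads over the group. Triha1_513509 was at 615, 591 and 1158 against 0.0689, 0.0422 and 0.556 FPKM (log2 fold change 12.27, SE 0.98, adjusted p = 2.06e-04 by edgeR), Triha1_515795 at 1991, 2099 and 511 against 0.766, 0.740 and 0.230 FPKM (log2 fold change 11.99, SE 0.98, adjusted p = 2.24e-04 by edgeR), and Triha1_118476 at 3482, 1322 and 16465 against 1.73, 0.819 and 5.19 FPKM (log2 fold change 11.95, SE 1.55, adjusted p = 0.00116 by edgeR). Triha1_512744 was at 1.04, 1.25 and 410.4 FPKM, so that the size of its rise rested on replicate 3 (5537 reads against 1, a ratio of 9350 with a counting interval of 1678 to 369384). Without cellulose replicate 3 it was still called, with a log2 fold change of 5.84, and its call was lost without any 1 of the no carbon libraries. The other 5 of the 10 largest rises were enzyme genes described above, the LPMO Triha1_488374, the endoglucanase Triha1_512303, the esterase Triha1_94998 and the xylanases Triha1_91773 and Triha1_127746.

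The largest falls were of genes that were highly expressed without a carbon source and near 0 on cellulose. Triha1_505895 was at 1896, 1703 and 1537 FPKM without a carbon source and at 0.817, 1.45 and 0.696 FPKM on cellulose (log2 fold change -10.15, SE 0.46, adjusted p = 3.95e-05 by edgeR), and Triha1_101981 at 2387, 2099 and 2337 against 1.23, 2.18 and 1.48 FPKM (log2 fold change -9.85, SE 0.39, adjusted p = 2.63e-05 by edgeR). Triha1_101028 and Triha1_150678 had means of 2746 and 1859 FPKM without a carbon source and 2.20 and 2.25 FPKM on cellulose. Across the 4 genes the highest cellulose library was at 2.55 FPKM and the lowest no carbon library at 1537 FPKM. They were also near 0 on D-fructose, with means of 1.29, 3.24, 2.60 and 2.15 FPKM. Triha1_501720, with 280 reads without a carbon source, had none on cellulose and was at least 55.3-fold lower when set against 3 reads over the group. The other 5 were Triha1_503269 (-9.58), Triha1_499088 (-9.29), Triha1_535600 (-8.96), Triha1_96734 (-8.63) and Triha1_501003 (-8.45), the last annotated with a proteolysis function.

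The most highly expressed genes on cellulose were not the cellulases. Triha1_86327 was at 17303, 17220.3 and 22902 FPKM on cellulose and 16.9, 26.9 and 17.6 FPKM without a carbon source (log2 fold change 10.45, SE 0.44, adjusted p = 3.35e-05 by edgeR), and Triha1_4170 at 14315, 18796 and 18684 against 15.9, 18.3 and 11.4 FPKM (log2 fold change 10.73, SE 0.42, adjusted p = 2.63e-05 by edgeR). Their means on D-fructose were 29366 and 18672 FPKM, so their levels there were also high. Triha1_45093 and Triha1_489366, with the highest means without a carbon source (68302 and 58208 FPKM), fell to 13865 and 9520.1 FPKM on cellulose, -1.73 and -2.03 on the log2 scale. Each remained among the 10 highest on cellulose, and the call of Triha1_45093 was lost without cellulose replicate 1 or 2. The hydrophobin gene Triha1_3176, of a family of small secreted proteins that coat aerial hyphae and spores, was at 15118, 11046 and 10064 FPKM without a carbon source and 1646, 1812 and 745 FPKM on cellulose (log2 fold change -2.50, SE 0.43, adjusted p = 0.00352 by edgeR). Also among the 10 highest without a carbon source, Triha1_55634 fell from 14177, 9915 and 10885 to 712, 949 and 131 FPKM (log2 fold change -3.67, SE 0.74, adjusted p = 0.00640 by edgeR), while Novel00031 was not called with 900.5, 1073 and 8217 FPKM on cellulose against 13972, 14821 and 10412 FPKM.

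Cellulose replicate 3 differed from replicates 1 and 2 in opposite directions for different groups of genes. Over all genes tested it was the highest cellulose library in 48.8% and the lowest in 35.8%. Of the 29 PBD CAZymes that rose, it was the highest in 25, with a median of 3.53 times the mean of the other replicates. Of the 18 glycolysis genes that rose, it was the lowest in all 18, with a median of 0.462 times that mean, and of the 11 TCA cycle genes that rose it was the lowest in 8. Of the 27 sugar transporters that fell it was the highest in 22. Among the no carbon cultures, replicate 3 was the highest library in 16 of the 29 PBD CAZymes that rose, against 34.0% of all genes tested, at levels far below those on cellulose. What sets these libraries apart was not tested. Without cellulose replicate 3 there were again 29 PBD CAZymes, 18 glycolysis genes and 14 transporters higher, and the PBD CAZymes lower on cellulose numbered 10 in place of 7.

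**Figure D5:**
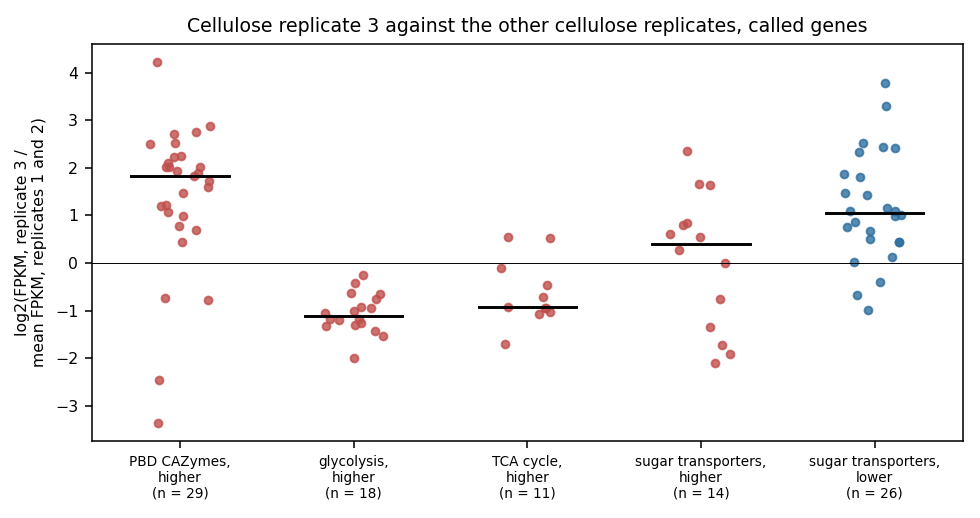
Log2 ratio of the FPKM of cellulose replicate 3 to the mean FPKM of cellulose replicates 1 and 2, for the called genes of each list, with a line at each median and 1 point per gene (1 transporter with no FPKM in replicates 1 and 2 is left out). The PBD CAZymes lie mostly above 0 and all 18 glycolysis genes lie below 0.

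The response to cellulose was set against that of the Δ*xyr1-2* mutant, the closest comparison in the series, which has its own 3 cellulose and 3 no carbon libraries. The interaction term of an edgeR fit to the 12 libraries was called, at an adjusted p under 0.05 and a difference of log2 fold changes over 1, in 4877 of 11873 genes (41.1%). In the mutant's own comparison of cellulose with no carbon, 9 of 11509 genes were called. Of the genes called in the wild type, 4269 had an interaction called in the same direction, so the count largely restates the wild-type response. The genes below were chosen as cellobiohydrolases or by the largest changes in the wild type. For the cellobiohydrolases Triha1_7497 and Triha1_508689 the log2 fold change was larger in the wild type by 9.55 (SE 1.91, adjusted p = 0.00187) and 9.93 (SE 1.34, adjusted p = 1.54e-04). In the mutant these genes were at between 0.595 and 8.99 FPKM and between 0.773 and 5.79 FPKM on cellulose. Triha1_93744 was called (adjusted p = 0.0137), but with no reads in the wild type without a carbon source and 5 and 4 reads in the mutant groups the size of its difference is not given. For the endoglucanase Triha1_512303, with 16 and 1 reads in the 2 mutant groups, it was 9.70 with an SE of 6.33 and was not called (adjusted p = 0.217). The falls of Triha1_505895 and Triha1_101981 differed by -10.22 and -9.84, and in the mutant they stayed at between 1655 and 2074 FPKM and between 1997 and 2466 FPKM on cellulose.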

How the data were processed

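RNA from 18 mycelium cultures was sequenced by the study as poly-A libraries, with separate spore plates described for each replicate set. The authors mapped reads with STAR 2.5.2b, counted them with HTSeq 0.5.4, and deposited raw counts and FPKM for 14650 genes (the FPKM tool is not given in the sources used here). Of the gene names, 14290 matched the reference table (assembly Triha v1.0) and the other 360 were the authors' own. Their comparison columns were not used.

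For the 6 libraries, edgeR 4.0.16 (R 4.3.3) fitted the counts with its quasi-likelihood method, using TMM, filterByExpr and Benjamini-Hochberg adjustment, after a check on simulated data. In that check, with 200 genes changed 4-fold, edgeR recovered 142 and made 9 false calls. Far fewer genes changed in it than were called in the data, so it cannot test the scaling of the libraries. Standard errors were derived from the F statistic. The interaction was called without the FPKM criterion. DESeq2 1.42.0 and other settings were alternatives. Counting intervals are 95% exact intervals that, like floors of 3 reads, cover counting error only.

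Gene lists came from a part of the study's annotation table that held 818 genes, so they are incomplete. Members and lists were chosen with earlier results of these data known. The genes named were listed genes, the 10 largest rises and falls among called genes with mean FPKM over 10 and replicates that did not overlap, the genes with the highest means, and the 3 sugar transporters with the largest change in each direction. Lists planned from product names, which the reference table lacks, and promoters were not analysed here.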

Additional observations from a re-analysis of the deposited data

Results flagged for a closer look

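The results below are those where the response to cellulose differed between the strains by the interaction term of edgeR on 12 libraries. This term was called for 4877 of 11873 genes, while the mutant's own comparison called 9 of 11509. The genes given were chosen as cellobiohydrolases or by the largest wild-type changes, so a large difference follows wherever the mutant changed little. Triha1_512303, chosen in the same way, was not called (adjusted p = 0.217 by edgeR). The difference between the strains in the log2 fold change was 9.55 for Triha1_7497, 9.93 for Triha1_508689, -10.22 for Triha1_505895 and -9.84 for Triha1_101981. Triha1_93744 was called with an adjusted p of 0.0137, and the size of its difference is not given because it had no reads in the wild type without a carbon source. Groups of 3 replicates are too small for a test of single outlying libraries, so none was made, and cellulose replicate 3 is described by its values in the report.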

How the results depend on the processing

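Scaling by library size only was the only alternative that moved a count of calls by over 1.5 times among the main counts, with 1335 genes higher and 4045 lower, 6 TCA cycle genes higher and 2 glycolysis genes lower. The total was 5013 with DESeq2 (2606 higher), 4753 with RLE size factors, 4810 without the filter on low counts, 5124 with all 18 libraries in one fit, 4883 without the FPKM criterion and 3466 at an adjusted p under 0.01. Leaving out 1 library gave between 3883 and 5642. The interaction count was 5197 with DESeq2, 5583 with scaling by library size only and between 4463 and 5763 with 1 library left out. RLE size factors moved the median of all genes by 0.11.

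With the replicate number as a block the count was 4475 and the interaction count 4689, and of the genes in the lists and among those named 7 lost their calls and 3 gained one. Taken over all genes tested, same-numbered libraries of the groups did not deviate together (Pearson's r of -0.09, 0.08 and 0.00 across 11313 genes). Some enzyme genes differed from this, as both cellobiohydrolase genes were highest in replicate 3 of each group. The protocol describes 3 sets of pre-cultures, each passed on to its own replicate cultures. It does not say that the number marks the set, so the numbers were not taken as pairs.

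Of the genes named, 3 that were not called were called with the opposite sign in 1 setting, without cellulose replicate 3. With 1 library left out, Triha1_110887 was between -1.61 and 0.63, Triha1_79128 between -1.002 and 0.97 and the esterase Triha1_157348 between -1.36 and 1.32. Rescaled by TMM factors, the ratios of summed FPKM were 11.8 for the PBD CAZymes and 3225 for the cellobiohydrolases. Over the lists summed, leaving out 1 library gave 4.30 to 10.05 for the PBD CAZymes, 900 to 5161 for the cellobiohydrolases, 3.00 to 7.72 for the endoglucanases, 687 to 1103 for the AA9 LPMOs and 345 to 654 for the endo-xylanases. Depth limits the genes near 0 without a carbon source, where 1 to 3 reads decide a ratio. Some of these low values, as for the cellobiohydrolases, followed the order of the same-numbered cellulose libraries, and where those reads came from was not tested. The causes of these differences were not tested.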

Other observations

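The following groups were chosen after the data were seen, from domain or function terms of the annotated part of the genome, and are given as values. Over all genes tested, 19.9% rose and 22.1% fell. All 8 genes listed as structural constituents of the ribosome rose on cellulose, with a median log2 fold change of 2.11, from Triha1_126138 (log2 fold change 1.10, SE 0.32) upwards. One of them, Triha1_112882, also carries the annotation of aminoadipate reductase. Scaled by library size only, 6 of the 8 were called, and without no carbon replicate 1 there were 4. The groups did not overlap in 4 of the 8, against 71.3% of all genes tested. Cellulose replicate 3 was the lowest cellulose library in 7, against 35.8% of all genes tested. The 3 cytochrome P450 genes tested of 4 all fell, with a median of -2.70. Of 15 zinc cluster transcription factor genes, 3 rose and 1 fell, with the largest change in Triha1_479513, at 3.67, 2.65 and 2.83 FPKM on cellulose against 0.179, 0.125 and 0.218 FPKM (log2 fold change 4.67, SE 0.34, adjusted p = 1.39e-04 by edgeR), and scaled by library size only 1 rose and 6 fell. None fell without cellulose replicate 1 or no carbon replicate 3, and 2 fell without cellulose replicate 3. Of 6 proteolysis genes tested, 2 rose and 3 fell.

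DE genes changed more than 4-fold in the same direction also lay next to each other in the order of the reference annotation, in 1 run of 8 genes, 2 of 7 and 7 of 6. Most such genes had no neighbour of this kind, with 1340 standing alone and 272 runs of 2. Scaffold names were lacking, so scaffold ends were placed only where the start position dropped. No test of such runs was made, and the counts of neighbouring genes may depend on how reads were assigned where their annotated spans overlap. The run of 8 rising genes held Triha1_118476 and Triha1_88948, the latter at 4691, 2647 and 12390.5 FPKM on cellulose against 8.33, 9.06 and 11.5 FPKM, together with Triha1_145786 (11.69), Triha1_145790 (11.60), Triha1_118482 (11.58), Triha1_17731 (11.73), Triha1_509408 (9.65) and Triha1_88544 (2.76). Their means on D-fructose were between 23.8 FPKM for Triha1_509408 and 2465 FPKM for Triha1_88948. Replicate 2 was the lowest and replicate 3 the highest cellulose library in all 8 genes. A run of 6 rising genes held the GH30 xylanase Triha1_147762 and the GH7 cellobiohydrolase Triha1_7497, with Triha1_484109 (9.82), Triha1_209136 (2.09), Triha1_522101 (5.02) and Triha1_91534, which had 410 reads on cellulose against 1, a ratio of 692 with a counting interval of 124 to 27413. The annotated spans of Triha1_7497 and Triha1_522101 overlap. A run of 7 falling genes, from Triha1_488267 to Triha1_514178, fell by between 3.06 and 5.78 on the log2 scale, and its members Triha1_11442 and Triha1_366985 had 709, 618 and 561 and 3636, 2964 and 2517 FPKM without a carbon source and means of 1037 and 6271 FPKM on D-fructose.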
